A study of Rattus norvegicus with 10 samples.

Results

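The genes described here encode the coat of caveolae, the small flask-shaped pits of the plasma membrane, and were sought by symbol among the 10184 genes listed for the series. Of the 7 symbols Cavin1, Cavin2, Cavin3, Cav1, Cav2, Ehd2 and Pacsin2, 4 had a row: Cavin1, Cavin3, Ehd2 and Pacsin2. Cavin2, Cav1 and Cav2 had no row under those symbols and were not analysed here, and 813 rows carry no symbol. The members were chosen by their measured values: Cavin1 and Cavin3 differed in opposite directions between ARSL KO and WT cells. Hence the members' differences in that contrast are given as a description, without p-values, and support nothing.

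The libraries were made from RCS, a chondrosarcoma line of the rat that secretes cartilage matrix, harvested 48 h after seeding in medium with serum and with no treatment. One group carried a knockout of ARSL, arylsulfatase L, an enzyme of the Golgi that removes sulfate groups (ARSL KO, n = 5), and the other was wild type (WT, n = 5). Libraries are called biological replicates in the labels, which do not say how many KO clones were used or whether the cultures were started independently, so clone and genotype cannot be told apart, and p-values measure only the spread between these samples. The knockout was not checked here against the mRNA of its target.

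Caveolin proteins insert into the inner leaflet of the plasma membrane, and cavins assemble around them from the cytosol into the striped coat that bends the membrane. Cavin-1 is needed for caveolae to form, and its loss in humans causes a lipodystrophy with muscle disease. Cavin-2 and cavin-3 join the coat through cavin-1, with cavin-2 affecting its shape and cavin-3 its traffic and signalling. EHD2 is an ATPase that sits at the neck of the pit and holds it at the surface, and PACSIN2 is an F-BAR protein that senses and shapes its curvature. Caveolae flatten under membrane stretch, and they are a feature of chondrocytes as well as of endothelial, fat and muscle cells.

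Values are normalised reads, that is whole reads recovered from the deposited values and divided by the library's size factor, or differences on the deposited log2-like scale, on which a difference understates the fold change of weak genes. Recovered reads ran from 2065594 to 2591819 per library over the listed genes. On the first principal component of the tested genes, with 51.1% of the variance, libraries were not split by genotype: WT 3, WT 4 and ARSL KO 4 scored 26.8 to 28 and 7.91 on it, while the other 7 libraries lay between -15 and -3. Results for the members are therefore also given without these 3 libraries. Of 16 chondrocyte markers 14 were listed, all but Sox9 and Snorc. Their summed level was 48540 to 65530 normalised reads in ARSL KO and 52630 to 91480 in WT libraries. Of these markers 1, Col11a1, passed the test between genotypes and is given with the other gene lists. Of markers of other caveola-bearing cells, 1 of 8 endothelial, 2 of 6 adipocyte and 2 of 8 muscle markers were listed, with sums of at most 29.3, 18.2 and 22.4 normalised reads in ARSL KO and 44.9, 30.6 and 27.4 in WT libraries. For fibroblasts 2 of 9 were listed, with Col1a1 and Col1a2 not among them (at most 41 in ARSL KO and 49.2 in WT), and for macrophages 2 of 6 (at most 19.6 and 19.7). A marker with no row under its symbol may lie among the rows without a symbol, so its absence does not show low expression. In such bulk libraries, fewer cells that express a gene and less RNA per cell cannot be told apart.

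Cavin3, whose product binds protein kinase C delta, was the member that rose in ARSL KO cells. It had 352.1, 317.2, 373, 361.1 and 343.5 normalised reads in ARSL KO 1 to 5, against 56.7, 51.3, 160.8, 197.9 and 140.6 in WT 1 to 5. Every KO library lay above every WT library, and the lowest KO value was 1.6 times the highest WT value. The means were 349.4 ± 21.1 in ARSL KO and 121.5 ± 65 in WT cells (SD, n = 5 each), a 2.88-fold difference. On the log2-like scale the difference was 1.39 (SE 0.23), the 2nd largest positive one among the 8431 genes tested. Without the 3 libraries that stand apart the means were 346.4 ± 23.1 in ARSL KO (n = 4) and 82.8 ± 50.1 in WT (n = 3), and the fold was 4.18.

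Cavin1, the core of the coat and also known as a factor that releases transcripts of RNA polymerase I, fell in ARSL KO cells. It had 443.4, 418.2, 433.9, 365 and 404.5 normalised reads in ARSL KO 1 to 5, against 909.1, 896.2, 563.5, 545.9 and 958.8 in WT 1 to 5. Every KO library lay below every WT library, but the lowest WT value was only 1.23 times the highest KO value. The means were 413 ± 30.7 in ARSL KO and 774.7 ± 202 in WT cells (SD, n = 5 each), so that WT was 1.88-fold above KO. On the log2-like scale the difference was -0.81 (SE 0.15), the 31st largest negative one. Leaving out the 3 libraries gave means of 425 ± 17.2 in ARSL KO (n = 4) and 921.4 ± 33 in WT (n = 3), with WT 2.17-fold above KO and a difference of -1.05.

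Counted with the limma test over all genes, 2 of the 3 members tested were called at an adjusted p under 0.05, Cavin3 upward and Cavin1 downward, where 1.14% of all tested genes were called, 0.261% upward and 0.878% downward. The same 2 members had groups that did not overlap, as did 4.26% of all tested genes, 1.86% with KO above WT and 2.4% with KO below WT. The choice of the members used this contrast, so nothing is read from these counts. The call of Cavin1 was lost without ARSL KO 2, ARSL KO 3 or ARSL KO 5, with differences of -0.81, -0.83 and -0.80, and the difference of Cavin3 ranged from 1.20 to 1.56 with 1 library left out.

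**Figure D1:**
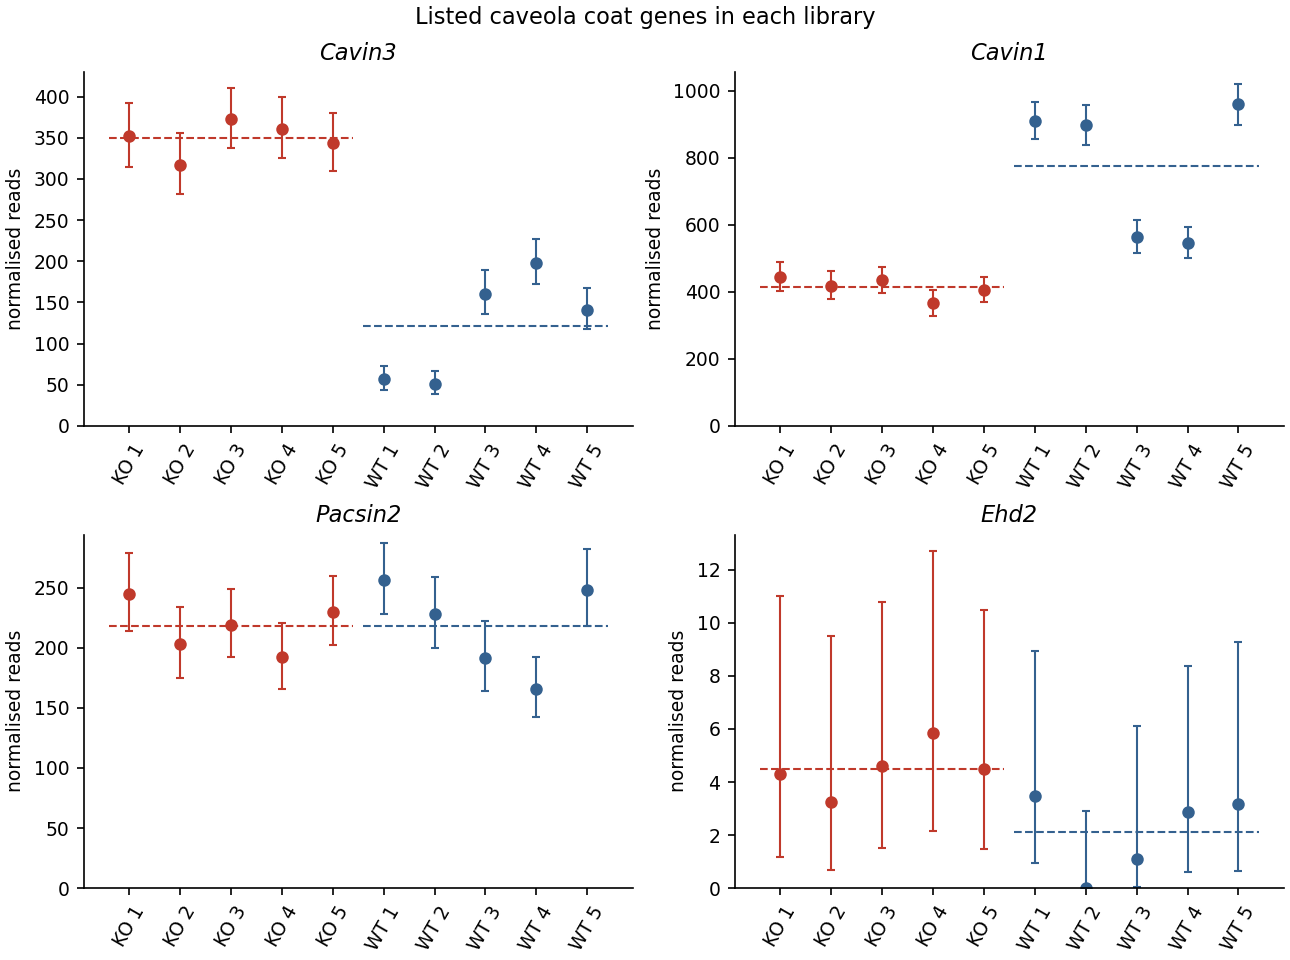
Normalised reads (y axis, from 0) of the 4 listed caveola coat genes in each library (x axis), ARSL KO in red and WT in blue; bars are 95% Poisson intervals (for the 0 of Ehd2 in WT 2, the 3 reads that a count of 0 allows) and cover counting error only, and dashed lines are group means. Cavin3 lies between 317.2 and 373 in ARSL KO and between 51.3 and 197.9 in WT, Cavin1 between 365 and 443.4 in ARSL KO and between 545.9 and 958.8 in WT, and the groups overlap for Pacsin2 and Ehd2.

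The RefSeq promoter windows used here held no entry for Cavin3, the member that rose, so its upstream sequence could not be examined. The upstream sequence of Cavin1 is shown because Cavin1 is the member that fell, and that of Pacsin2 because it is the listed partner with no such difference. Both are RefSeq promoter windows of build GRCr8, 250 bases before to 50 after the annotated start, printed 5′ to 3′ on the gene's strand. The windows are chr10:86396334-86396633 on the minus strand for Cavin1 and chr7:116447635-116447934 on the minus strand for Pacsin2. Capitals mark matches to 6 motifs searched on both strands. The TATA box was sought as TATAAA and the CCAAT box by those 5 letters. The GC box was sought as GGGCGG, the core of TEAD binding sites as CATTCC, the AP-1 site as TGACTCA and the symmetrical E-box as CACGTG.
Cavin1: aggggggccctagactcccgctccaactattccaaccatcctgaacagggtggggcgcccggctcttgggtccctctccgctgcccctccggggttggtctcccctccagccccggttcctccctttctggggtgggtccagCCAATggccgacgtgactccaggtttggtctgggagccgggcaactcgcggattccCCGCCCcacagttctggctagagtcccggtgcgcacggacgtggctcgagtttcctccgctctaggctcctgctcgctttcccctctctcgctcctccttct
Pacsin2: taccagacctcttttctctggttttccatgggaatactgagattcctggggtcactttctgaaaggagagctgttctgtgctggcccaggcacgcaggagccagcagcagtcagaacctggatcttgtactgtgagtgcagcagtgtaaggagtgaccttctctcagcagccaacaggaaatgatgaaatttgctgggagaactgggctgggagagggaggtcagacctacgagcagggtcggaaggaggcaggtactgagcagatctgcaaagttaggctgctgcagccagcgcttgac
The Cavin1 window held 1 CCAAT match 108 bases before the start and 1 GC box match on the other strand 52 bases before it, which did not overlap. Of 33469 promoter windows of this length, 37.5% held the CCAAT box and 33.1% the GC box. It was rich in G and C, at 66.3% with 20 CG pairs, where the median window had 51.7% and 7. The Pacsin2 window held none of the 6 motifs and had 54% G and C with 4 CG pairs. The TATA box, TEAD core, AP-1 and E-box motifs, found in neither window, occurred in 14.2%, 14.2%, 4.63% and 6.42% of all windows.

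Pacsin2 had nearly equal means in both genotypes. It had 244.8, 203.1, 218.8, 192.3 and 229.6 normalised reads in ARSL KO 1 to 5, against 256.3, 228.4, 191.5, 165.4 and 248.4 in WT 1 to 5. The groups overlapped throughout, with means of 217.7 ± 20.8 in ARSL KO and 218 ± 38.6 in WT cells (SD, n = 5 each). The difference was 0.01 (SE 0.11) on the log2-like scale, and -0.11 without the 3 libraries that stand apart.

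Ehd2 was close to the limit of detection. It had 4, 3, 5, 6 and 5 reads in ARSL KO 1 to 5, against 4, 0, 1, 3 and 3 reads in WT 1 to 5, 34 reads in all. The 0 in WT 2 allows up to 3 reads, or 2.9 normalised reads. The groups overlapped, and with a mean of 4.5 ± 0.927 normalised reads in ARSL KO and 2.12 ± 1.51 in WT cells (SD, n = 5 each), Ehd2 did not pass the filter of about 10.7 normalised reads. With no filter its log2-like difference was 0.26 and it was not called.

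The ratio of Cavin3 to Cavin1 within a library was higher in every ARSL KO library than in any WT library. Gene lengths cancel when this ratio is compared between libraries, but the ratio itself is not one of molecules. Cavin3 reads per Cavin1 read were 0.794, 0.758, 0.86, 0.989 and 0.849 in ARSL KO 1 to 5, against 0.0623, 0.0572, 0.285, 0.362 and 0.147 in WT 1 to 5. The highest WT value, in WT 4, was below every KO value. The log2 ratio averaged -0.24 ± 0.15 in ARSL KO and -2.83 ± 1.22 in WT cells (SD, n = 5 each), a 6.04-fold difference of the ratio, and 10.1-fold without WT 3, WT 4 and ARSL KO 4. It was 4.83-fold without WT 2, the single library whose omission lowered it most, and 7.66-fold without WT 4, the one whose omission raised it most.

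**Figure D2:**
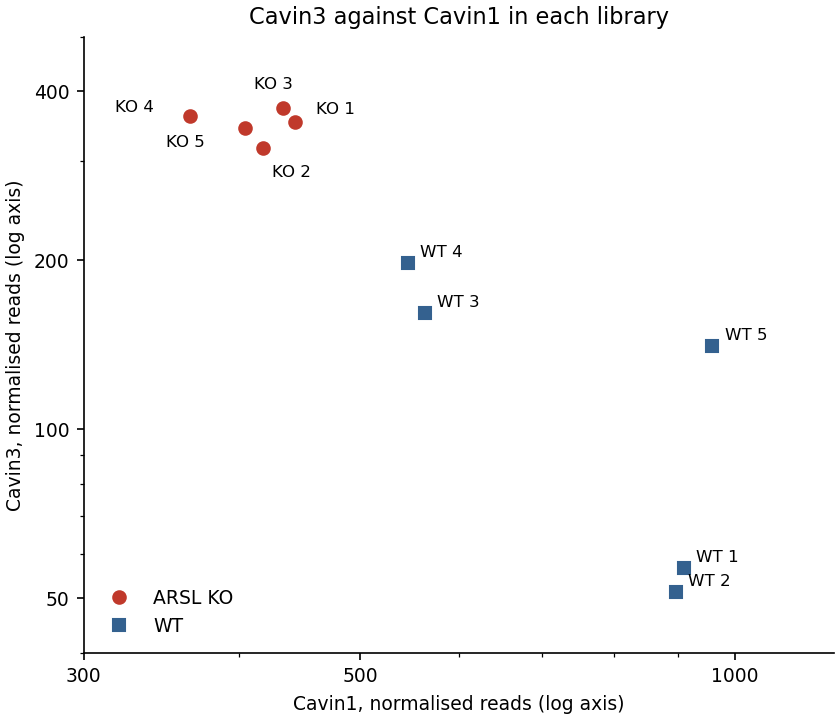
Cavin3 (y axis) against Cavin1 (x axis) in normalised reads, both on log axes, 1 point per library, ARSL KO as red circles and WT as blue squares. The KO libraries form 1 tight group at 365 to 443.4 for Cavin1 and 317.2 to 373 for Cavin3, while the WT libraries spread from WT 1 and WT 2 (low Cavin3, high Cavin1) to WT 4 (197.9 and 545.9).

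Over all 10 libraries the spread of both cavins was far wider in WT than in KO cells. The coefficient of variation of Cavin3 was 6.03% in ARSL KO and 53.5% in WT libraries, where counting error alone gives 5.32% and 9.12%. That of Cavin1 was 7.43% in ARSL KO and 26.1% in WT, with 4.9% and 3.56% from counting. In KO libraries Cavin3 thus varied little beyond its counting error and Cavin1 somewhat more. In WT libraries both varied well beyond theirs. Among the 8431 tested genes, the SD of Cavin3 on the log2-like scale stood above 7.24% of genes in ARSL KO and above 99.1% in WT, and that of Cavin1 above 15.2% in ARSL KO and 89.5% in WT. For Pacsin2 the coefficient of variation was 9.57% in ARSL KO and 17.7% in WT. The wide WT spread of Cavin1 came from WT 3 and WT 4. Without them and ARSL KO 4, Cavin1 was at 425 ± 17.2 in ARSL KO (SD, n = 4) and 921.4 ± 33 in WT (n = 3). Cavin3 kept a wide WT spread there, at 346.4 ± 23.1 in ARSL KO and 82.8 ± 50.1 in WT.

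The 2 cavins did not split the WT libraries in the same way. Cavin1 was at 545.9 to 563.5 normalised reads in WT 3 and WT 4 and at 896.2 to 958.8 in the other 3, which is the split of the first principal component. Cavin3 was at 51.3 to 56.7 in WT 1 and WT 2 and at 140.6 to 197.9 in WT 3, WT 4 and WT 5. WT 5 therefore had the highest Cavin1 of all libraries together with a Cavin3 level above that of WT 1 and WT 2, and its Poisson interval for Cavin3, 118 to 167, lay clear of theirs, 43.7 to 72.2 and 38.4 to 67.1. ARSL KO 4, the KO library highest on the component, had the lowest Cavin1 of its group, and its Cavin3 was within the range of the other KO libraries. Pacsin2 was lowest in WT 4, WT 3 and ARSL KO 4, in the same libraries in which Cavin1 was low for its genotype. Whether what sets these 3 libraries apart has a part in the genotype differences was not tested. Both differences were larger without them. This follows from WT 3 and WT 4 having the lowest Cavin1 and the highest Cavin3 of the WT libraries, so nothing is read from it.

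**Figure D3:**
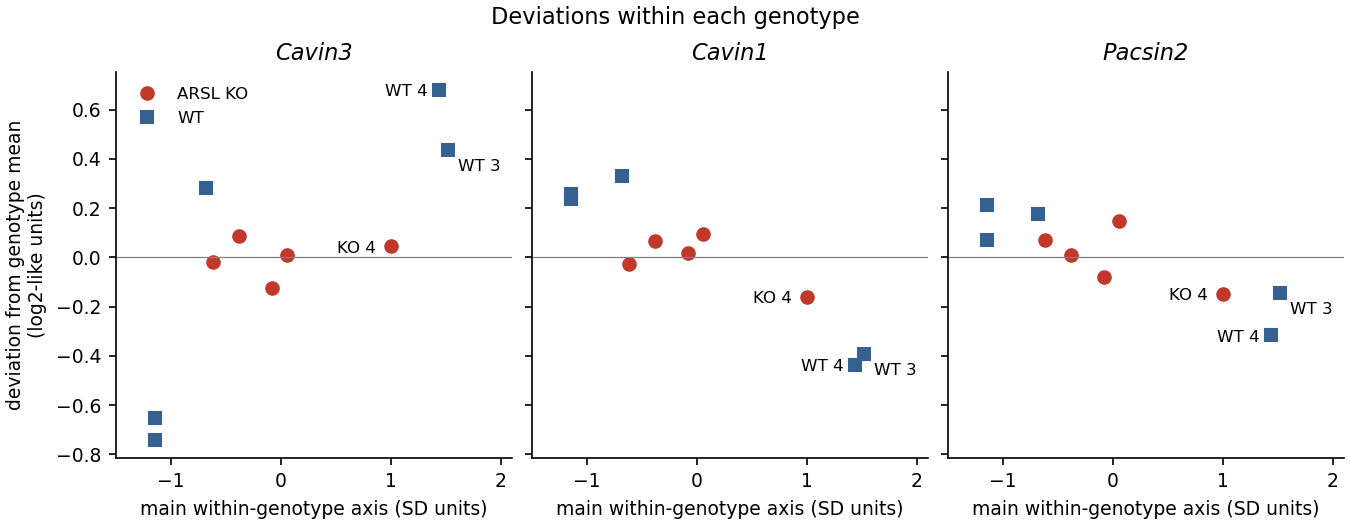
Deviation of each library from its genotype's mean (y axis, log2-like units) for Cavin3, Cavin1 and Pacsin2, against the main axis of variation within genotypes (x axis, in SD units), ARSL KO as red circles and WT as blue squares. WT 3 and WT 4 lie to the right with low Cavin1 and Pacsin2 and high Cavin3; ARSL KO 4 lies to the right with low Cavin1 and Pacsin2 but Cavin3 near its group mean.

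The genes most like each cavin were sought among the tested genes by Pearson correlation, over the 10 libraries and, to leave the genotype difference out, over deviations from the genotype means. These r values describe 10 libraries that share the component above, and carry no test. Over all libraries the 5 most like Cavin1 were Fam20b, Acsl1, S100a4, Lpar1 and Eif4h, with r of 0.979 to 0.917. Fam20b, a kinase that phosphorylates xylose in the linker of proteoglycan chains, had 822.7 to 910.4 normalised reads in ARSL KO and 912.5 to 1060 in WT libraries, a far smaller difference than that of Cavin1. Of these 5, S100a4, a calcium-binding protein, passed the limma test. For Cavin3 they were Npepl1, Phax, Tmed4, Atrx and Cacna2d1, with r of 0.933 to 0.913, and of these Npepl1 passed. Npepl1 had 17.2 to 32.6 normalised reads in ARSL KO and 0.872 to 9.85 in WT libraries, lowest in WT 1 and WT 2 as Cavin3 was.

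Within the genotypes the order of likeness was another one. On the log2-like scale the SD of Cavin1 was 0.10 in ARSL KO and 0.38 in WT libraries. That of Cavin3 was 0.08 in ARSL KO and 0.65 in WT. The r values of these deviations therefore rest mainly on the WT libraries. Egln2, an oxygen-sensing prolyl hydroxylase, Lsm4, Cct7, Tex261 and Psmb7 followed Cavin1 with r of 0.988 to 0.983, and none of the 5 passed the limma test between genotypes. Egln2 had 113.2 to 134.2 normalised reads in ARSL KO libraries, and in WT 91.9 and 95.6 in WT 3 and WT 4 and 155.8 to 166 in the other 3, with means of 122.5 in ARSL KO and 134.5 in WT. Stoml1, Crlf2, Sqstm1, Sesn2 and Plekhm1 followed Cavin3 with r of 0.991 to 0.945, and none of them passed between genotypes either. Stoml1, a stomatin-like membrane protein, had 27.1 to 30.2 normalised reads in ARSL KO libraries, against 18.3 and 18.4 in WT 1 and WT 2 and 30.6 to 40.2 in WT 3, WT 4 and WT 5. Cavin3 and Stoml1 were thus both lowest in WT 1 and WT 2 and highest in WT 4 among the WT libraries, but Stoml1 in KO cells stayed within the WT range, where Cavin3 lay above it. Sqstm1 is an autophagy receptor and Sesn2 a stress-induced sestrin.

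The nearest listed genes along the chromosome did not pass the test. By RefSeq gene order on GRCr8, Cavin1 lies on chromosome 10 between Stat3 and Atp6v0a1, whose differences were -0.27 (SE 0.18) and -0.21 (SE 0.15). Cavin3 lies on chromosome 1 between Fhip1b and Smpd1, with differences of 0.20 (SE 0.11) and -0.05 (SE 0.12). Their limma adjusted p ran from 0.47 to 0.882, and none of the 4 overlaps a cavin gene in that annotation.

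Other genes of the caveola and its relatives gave no call. Of 16 genes sought, 9 were tested and 0 passed limma or limma-voom, with a median difference of -0.07 beside 0.01 over all tested genes. At an unadjusted p under 0.05 there was 1, or 11.1%, where 13.5% of all tested genes were. Ehd1 and Ehd4, EHD ATPases that are known to stand in for EHD2, had differences of 0.15 (SE 0.10) and -0.07 (SE 0.15). Pacsin3, the muscle-type relative of PACSIN2, was at 104.7 ± 4.06 normalised reads in ARSL KO and 103 ± 6.87 in WT cells (SD, n = 5 each). Dnm2, the dynamin that cuts caveolae and coated pits from the membrane, was at 118.5 ± 18.2 in ARSL KO and 125.8 ± 9.82 in WT. Src, the kinase that phosphorylates caveolin-1, had the smallest p of the list, with 51.2 ± 6.19 in ARSL KO and 68.3 ± 15.1 in WT normalised reads (difference -0.26, limma adjusted p = 0.34). Cavin4, the muscle cavin, was listed at 5.37 to 13.4 normalised reads and was not tested.

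Among 9 tested flotillins and other raft proteins 0 passed limma or limma-voom (median -0.09). At an unadjusted p under 0.05 there was 1, or 11.1%, where 13.5% of all tested genes were. The smallest p was that of Stom, stomatin, at 89.2 ± 12.1 in ARSL KO and 121.3 ± 20 in WT normalised reads (limma adjusted p = 0.193). Flot1, which builds raft domains independent of caveolin, was at 59.6 ± 17.7 in ARSL KO and 84.7 ± 48.4 in WT (adjusted p = 0.633, limma). Of 13 tested genes for sphingomyelin and phosphatidylserine, lipids that caveolae gather, 0 passed either test (2, or 15.4%, at an unadjusted p under 0.05; median -0.06). Sgms2, the sphingomyelin synthase of the plasma membrane, came nearest, at 35.6 ± 12 in ARSL KO and 76.3 ± 21.5 in WT normalised reads (difference -0.68, SE 0.16; limma adjusted p = 0.0566).

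In the clathrin pathway, the other main coat for endocytosis, 1 of 16 tested genes passed (median -0.05), where 1.14% of all tested genes did. At an unadjusted p under 0.05 there was also 1, or 6.25%, where 13.5% of all tested genes were. Hip1, an adaptor that binds clathrin and membrane lipids, fell to 339.7 ± 33.2 normalised reads in ARSL KO, against 464.9 ± 26.4 in WT cells (SD, n = 5 each; difference -0.41, SE 0.09; limma adjusted p = 0.0373). Every KO library of Hip1 lay below every WT library, as in 2.4% of all tested genes. With 1 library left out the difference stayed between -0.45 and -0.37, but the call was lost in 9 of the 10 fits, all except the one without ARSL KO 4 (limma adjusted p up to 0.11), and it was lost with the replicate number as a block. Without WT 3, WT 4 and ARSL KO 4 the difference was -0.49 (limma adjusted p = 0.0017). Those 3 libraries were picked by their place in these same data, so nothing is read from that smaller p. Cltc, the clathrin heavy chain, was at 942.7 ± 139 in ARSL KO and 940.1 ± 67 in WT.

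Among 9 tested genes of RNA polymerase I transcription, in which cavin-1 has its other known role, 0 passed limma or limma-voom (median 0.15). At an unadjusted p under 0.05 there were 3, or 33.3%, where 13.5% of all tested genes were. They did not share a direction: Polr1d was lower in ARSL KO (difference -0.25), and Polr1b and Taf1d were higher (0.45 and 0.51). The smallest p was that of Polr1d, a subunit shared with polymerase III, at 328.6 ± 32 in ARSL KO and 397.3 ± 26.7 in WT normalised reads (limma adjusted p = 0.228), and Ttf1, the terminator-binding factor, was at 71.2 ± 11.9 in ARSL KO and 58.1 ± 11.4 in WT. Of 5 known binding partners of cavin-3, Brca1 and Cry2 were tested and passed neither limma nor limma-voom. Of these 2, 1 or 50% was at an unadjusted p under 0.05. Brca1 was at 125.9 ± 24.9 in ARSL KO and 94 ± 21.5 in WT normalised reads (adjusted p = 0.311, limma). Prkcd, protein kinase C delta, was listed at 0 to 13.9 normalised reads and was not tested. Of 9 tested genes of YAP/TAZ and TEAD signalling, which in other cells controls caveola genes, 0 passed limma or limma-voom (2, or 22.2%, at an unadjusted p under 0.05; median -0.01). Ccn1, a target of that pathway, had the smallest p, at 2083 ± 355 in ARSL KO and 1419 ± 179 in WT normalised reads (difference 0.53, SE 0.12; limma adjusted p = 0.0566), while its relative Ccn2 was at 390.1 ± 141 in ARSL KO and 386.4 ± 215 in WT.

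Among the markers of the cells' own type, 1 of 14 tested chondrocyte genes passed limma, and the same number passed limma-voom (median -0.08). Over all tested genes 1.14% passed limma. Col11a1, a chain of the type XI collagen that forms the core of cartilage fibrils, had 4153, 4268, 4101, 5854 and 3586 normalised reads in ARSL KO 1 to 5, against 7130, 6783, 15270, 15000 and 7996 in WT 1 to 5. Every KO library lay below every WT library, as in 2.4% of all tested genes. The highest values of each genotype were in ARSL KO 4, WT 3 and WT 4, where Cavin1 was lowest. The difference was -1.16 (SE 0.23, limma adjusted p = 0.0207), and -0.85 (limma adjusted p = 1.5e-06) without those 3 libraries. They were picked for standing apart in these same data and held the highest values, so leaving them out narrows the spread. That fit has 4 ARSL KO and 3 WT libraries, and nothing is read from its smaller p. The call was lost without ARSL KO 1, ARSL KO 2, ARSL KO 3 or ARSL KO 5 (limma adjusted p up to 0.083), with differences of -1.295 to -1.003 over the 10 fits that left out 1 library. At an unadjusted p under 0.05 there were 5 chondrocyte markers, or 35.7%, where 13.5% of all tested genes were. These were Col11a1, Sox6, Col9a1, Col9a3 and Matn3, all with lower values in ARSL KO. Acan, Matn1 and Comp went the other way, with differences of 0.22, 0.13 and 0.06, and were not called. The remaining markers lay between -0.20 and -0.01. Without WT 3, WT 4 and ARSL KO 4 the median of the list was 0.11, with Col9a2 called upward and Col11a1 downward. With all 10 libraries the difference of Col9a2 was -0.03. The part of the markers in the differences of the cavins was not tested. Of the other cells' markers, Thy1 (fibroblast), Vwf (endothelial) and Cd14 (macrophage) were the tested ones and passed neither limma nor limma-voom, with differences of 0.08, -0.30 and 0.09 (limma adjusted p of 0.854, 0.47 and 0.7) and 0 at an unadjusted p under 0.05.

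**Figure D4:**
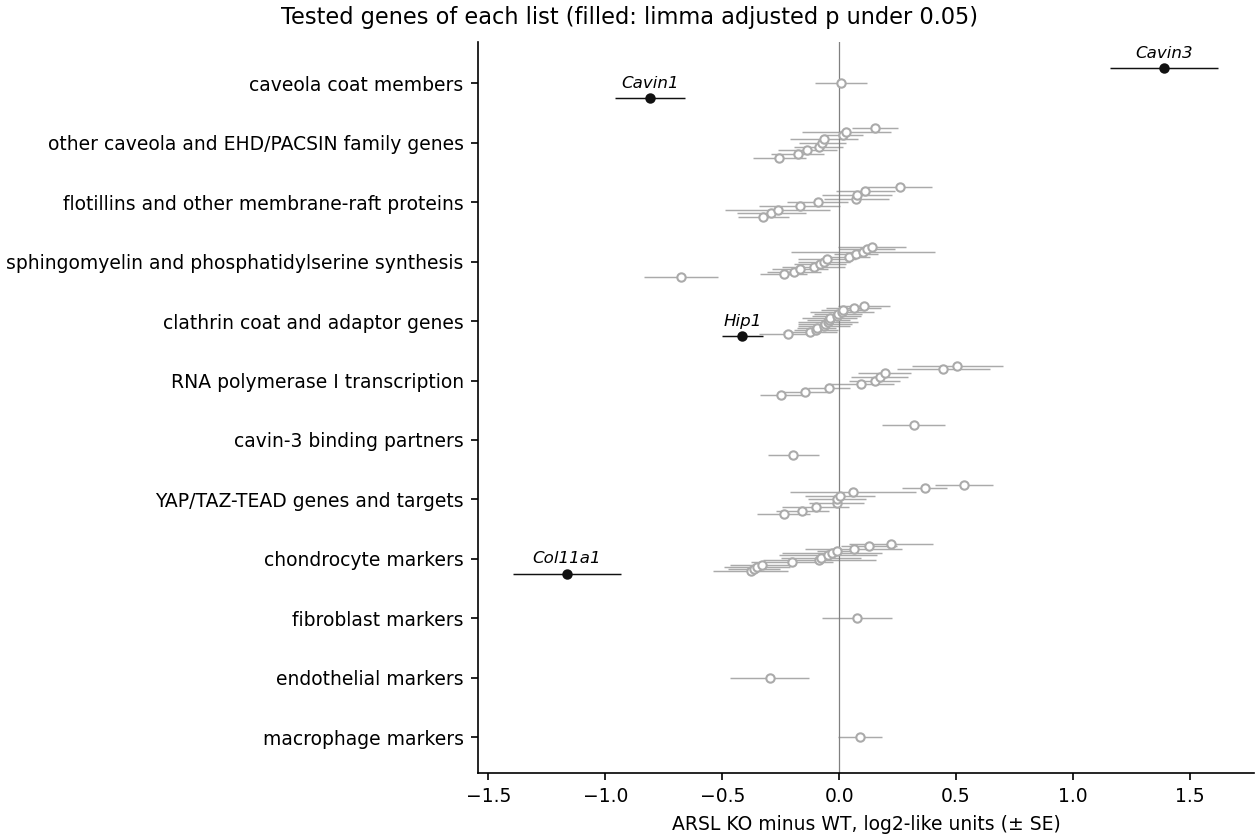
Difference ARSL KO minus WT on the log2-like scale (x axis, bars ± SE from limma) of each tested gene, by list (y axis); filled points passed limma at an adjusted p under 0.05 over all tested genes. Besides Cavin3 at 1.39 and Cavin1 at -0.81, the filled points are Col11a1 at -1.16 and Hip1 at -0.41; Col11a1 lies below Cavin1, and the highest value outside the members is that of Ccn1 at 0.53.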

How the data were processed

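mRNA was profiled in 5 ARSL KO and 5 WT libraries of RCS cells. Per the submitters' processing notes, bcl2fastq, STAR 2.7.11a and HTSeq were used with rat build rn6; the sources used here give neither the use of strand nor the gene filter nor the tool for stabilization. The authors deposited variance-stabilized log2-like values, normalized for library size, for 10184 genes. Inverting the transformation gave whole reads (largest departure 8.24e-09 reads), 2065594 to 2591819 per library over the listed genes, each with at least 30 reads in all; counting intervals (95%, Poisson) cover counting error only.

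The 8431 genes whose mean exceeded the lowest value, 4.42, by 1 or more were tested with limma 3.58.1 (R 4.3.3) on the deposited log2 values, two-sided, with an intensity trend and Benjamini-Hochberg adjustment. Within groups, chi-square per degree of freedom between libraries was 1.85 or more, and all 10 were kept as separate samples. It was 1.85 for WT 1 with WT 2, 2.19 for ARSL KO 1 with ARSL KO 2 and 2.37 for WT 3 with WT 4. Between WT 3 or WT 4 and the other WT libraries it was 15.7 to 21.3. Whether libraries this alike shared a culture was not tested. If they did, n = 5 is too high, and the SDs, SEs and p-values take no account of it.

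Members, gene lists, tests and alternatives were chosen with earlier results of these data known. All listed members are named; of each other list, called genes or the one with the smallest p, plus genes added after their values were seen (Ehd1, Ehd4, Pacsin3, Dnm2, Cavin4, Flot1, Cltc, Ttf1, Cry2, Prkcd, Ccn2, Wwtr1, Taf1d, Sptlc3, Sox6, Col9a1, Col9a3, Matn3, Col9a2); and the 5 genes most like each cavin by either measure. Acan, Comp, Matn1 and Polr1b were also added after their values were seen. Gene order and promoters came from RefSeq, GRCr8, whose coordinates do not apply to rn6. The alternatives were a replicate block, quantile normalization, median centring, a stricter filter or none, log2(normalised reads + 1), limma-voom, a covariate for the main within-genotype axis, and libraries left out. Figures were drawn with matplotlib 3.10.9.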

Additional observations from a re-analysis of the deposited data

How the results depend on the processing

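Under every alternative run, Cavin3 was higher and Cavin1 lower in ARSL KO cells. The difference of Cavin3 ran from 1.20 to 1.75 and that of Cavin1 from -1.05 to -0.73. The largest shifts were below the SD of the WT libraries (0.65 for Cavin3, 0.38 for Cavin1) but above that of the KO libraries (0.08 and 0.10). Since these genes were chosen for their directions in this contrast, that is a description and supports nothing. With 1 library left out, the difference of Cavin3 ranged from 1.20 to 1.56, that of Cavin1 from -0.92 to -0.73, the log2 difference of their ratio from 2.27 to 2.94 and the number of members called from 1 to 2. The number of genes called over the whole table was 96, but 60 with the stricter filter, 112 with no filter, 300 without WT 3, WT 4 and ARSL KO 4, 1345 with the covariate for the main within-genotype axis, and 33 to 101 with 1 library left out. Calls in the other gene lists, cell type markers included, numbered 2 (Col11a1 and Hip1). With the covariate they numbered 17, and 0 to 3 with 1 library left out. Without those 3 libraries they numbered 5, with Sptlc3, Ccn1 and Col9a2 added, each higher in ARSL KO. The covariate was the first component of the deviations of these same genes from their genotype means. It left the differences as they were and took out the largest part of the spread within genotypes. A smaller spread gives more calls, so nothing is read from the 1345 or the 17. WT 3, WT 4 and ARSL KO 4 were picked from these same data, so nothing is read from calls made without them. The cause of the other changes in number was not tested. The replicate numbers do not pair the samples: deviations of same-numbered libraries correlated from -0.293 to 0.587 over genes, and 2 of 5 KO libraries correlated best with their own number. With the replicate block 136 genes and 3 in the other lists were called (Col11a1, Ccn1 and Sgms2), and Hip1 was not. Depth limits what can be said of Ehd2, with 0 to 6 reads per library.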

Other observations

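Wwtr1, which encodes the transcriptional coactivator TAZ, was singled out after its values were seen. It had 86.2 ± 12.4 normalised reads in ARSL KO and 58.7 ± 3.51 in WT cells (SD, n = 5 each), with every KO library above every WT library, but did not pass limma over all genes (difference 0.37, SE 0.10; adjusted p = 0.0914). Groups did not overlap in 4.26% of all tested genes. Ccn1, described above, likewise had no overlap between its groups and was called without WT 3, WT 4 and ARSL KO 4. Taf1d, of the polymerase I list, had the largest positive difference there, at 688.2 ± 155 in ARSL KO and 483.2 ± 153 in WT normalised reads (difference 0.51, SE 0.20; limma adjusted p = 0.261), and its groups overlapped. Sptlc3, a subunit of serine palmitoyltransferase, was called upward without the 3 libraries, while with all 10 it was at 45.8 ± 19.7 in ARSL KO and 49.4 ± 45.2 in WT normalised reads.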
